A study of Mus musculus with 16 samples.

Results

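The natriuretic peptide system of the left ventricle was described from 7 named genes, out of 55492 genes in the deposited table. They were the peptide genes Nppa, Nppb and Nppc, the protease gene Corin, and the receptor genes Npr1, Npr2 and Npr3. All 7 were listed, and 6 of them reached the mean of 10 normalized counts that a gene needed to be tested, along with 20576 genes in all. Nppc did not reach it.

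RNA sequencing was performed on left ventricle of 16 male C57BL/6 mice aged 8 to 12 weeks. Control mice were PKM2fl/fl, that is, homozygous for a floxed allele of the pyruvate kinase gene Pkm from which PKM2 is still made. PKM2-/- mice came from a cross of PKM2fl/fl mice with CMV-Cre mice, whose Cre acts in the germline, so PKM2 was missing from every cell type and not from cardiomyocytes alone. For each genotype there were 2 hearts without surgery (baseline), 3 hearts collected 3 days after sham surgery and 3 collected 3 days after myocardial infarction (MI), made by tying off the left anterior descending artery for good. Sham surgery was the same operation without the ligature, and each library came from its own mouse. The labels do not say whether infarcted, border or remote ventricle was taken after MI, so the share of infarcted tissue in these libraries is not known.

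Atrial and B-type natriuretic peptide, encoded by Nppa and Nppb, are hormones of the cardiomyocyte that lower blood pressure and promote loss of salt and water. The ventricle makes them at a low level after birth and at a higher level under load or injury, which is why both are used as markers of cardiac stress. The membrane protease corin cleaves the precursor of atrial natriuretic peptide. The peptides bind Npr1 (atrial and B-type) or Npr2 (C-type), receptors that make cyclic GMP in the cell, while Npr3 takes up all 3 peptides and clears them.

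All mature natriuretic peptides share a ring of 17 residues closed by a disulphide bond between its first and last residue, and the ring is the part that the receptors recognise. The ring-coding stretches of Nppb and Nppc, 51 bases each from the GENCODE transcripts, are shown because these genes are close in sequence but were far apart in their ventricular level. Capitals mark the codons of the 13 residues that are the same in both peptides.

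Nppb: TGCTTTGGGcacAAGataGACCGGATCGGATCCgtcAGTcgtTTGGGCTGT
Nppc: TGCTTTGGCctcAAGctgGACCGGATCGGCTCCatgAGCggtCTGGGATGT

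The rings of Nppb and Nppc had 40 of 51 bases and 13 of 17 residues in common. Nppa (chr4:148000722-148002074, + strand of mm10) and Nppb (chr4:147985786-147987205, + strand) are neighbours on chromosome 4, with 13516 bases between the end of Nppb and the start of Nppa. The other members lie apart from them: Nppc at chr1:86666293-86670573 (- strand), Corin at chr5:72299948-72504540 (- strand), Npr1 at chr3:90450591-90465928 (- strand), Npr2 at chr4:43629015-43651437 (+ strand) and Npr3 at chr15:11839896-11907837 (- strand). These are whole gene spans, introns included, in the RefSeq annotation of the same build.

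The 250 bases before a RefSeq transcript start of Nppa and of Nppb are shown because their regulators were also measured. For Nppa the start used, 148000722, is that of the gene. For Nppb it is 147985900, while the gene span given above begins further upstream, so the last 114 bases shown, with all the marked matches, lie inside that span. They come from the RefSeq assembly of mm10, and both are on the + strand, at chr4:148000472-148000721 for Nppa and chr4:147985650-147985899 for Nppb. Capitals mark matches to motifs known from cardiac promoters, searched on both strands with no overlap among the matches found: GATA (these 4 letters with an A or T before and an A or G after them, bound by Gata4 and Gata6), NKE (TNAAGTG, bound by Nkx2-5), M-CAT (bound by Tead1), the TATA box, and the CArG box bound by Srf.

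Nppa promoter: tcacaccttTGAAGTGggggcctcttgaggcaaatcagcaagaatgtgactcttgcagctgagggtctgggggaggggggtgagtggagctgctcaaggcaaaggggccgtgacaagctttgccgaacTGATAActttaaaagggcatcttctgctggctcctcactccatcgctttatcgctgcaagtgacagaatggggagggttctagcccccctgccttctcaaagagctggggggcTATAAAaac
Nppb promoter: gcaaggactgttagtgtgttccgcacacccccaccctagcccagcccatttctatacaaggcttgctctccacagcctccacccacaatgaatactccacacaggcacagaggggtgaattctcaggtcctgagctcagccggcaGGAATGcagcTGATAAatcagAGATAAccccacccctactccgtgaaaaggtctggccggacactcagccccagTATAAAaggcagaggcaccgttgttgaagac

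The Nppa stretch held 1 NKE match, 1 GATA match and 1 TATA match (the letters TATAAA). The Nppb stretch held 1 match to M-CAT, whose letters CATTCC were read on the opposite strand, 2 GATA matches and 1 TATA match. Of 32851 promoters of the same length, 26.5% held a GATA match, 10.1% an NKE match, 12.6% an M-CAT match, 12.4% a TATA match and 1.47% a CArG box. Nppc had a TATA match only, and the stretches of Corin, Npr1, Npr2 and Npr3 had none of the 5 motifs. These are matches of letters and not measured binding sites.

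Values are normalized counts, the reads of a gene divided by the size factor of its library, and levels of different genes are compared per kilobase of annotated exon. Over the 16 libraries Nppa averaged 5768 and Nppb 3575 normalized counts per kilobase. Corin averaged 1075, and the 3 receptor genes lay close together at 82.5 (Npr3), 78.8 (Npr2) and 76.6 (Npr1). The length used was the union of exons over all annotated transcripts, 12430 bases for Npr3, 10571 for Npr2 and 7224 for Npr1. Before division by length the receptors averaged 1026, 833 and 553 normalized counts in that order. Their closeness per kilobase therefore depends on this choice of length. Nppc averaged 2.36. The hormone transcripts were thus far above those of their receptors in this tissue, and the gene for C-type peptide was near the limit of detection.

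**Figure D1:**
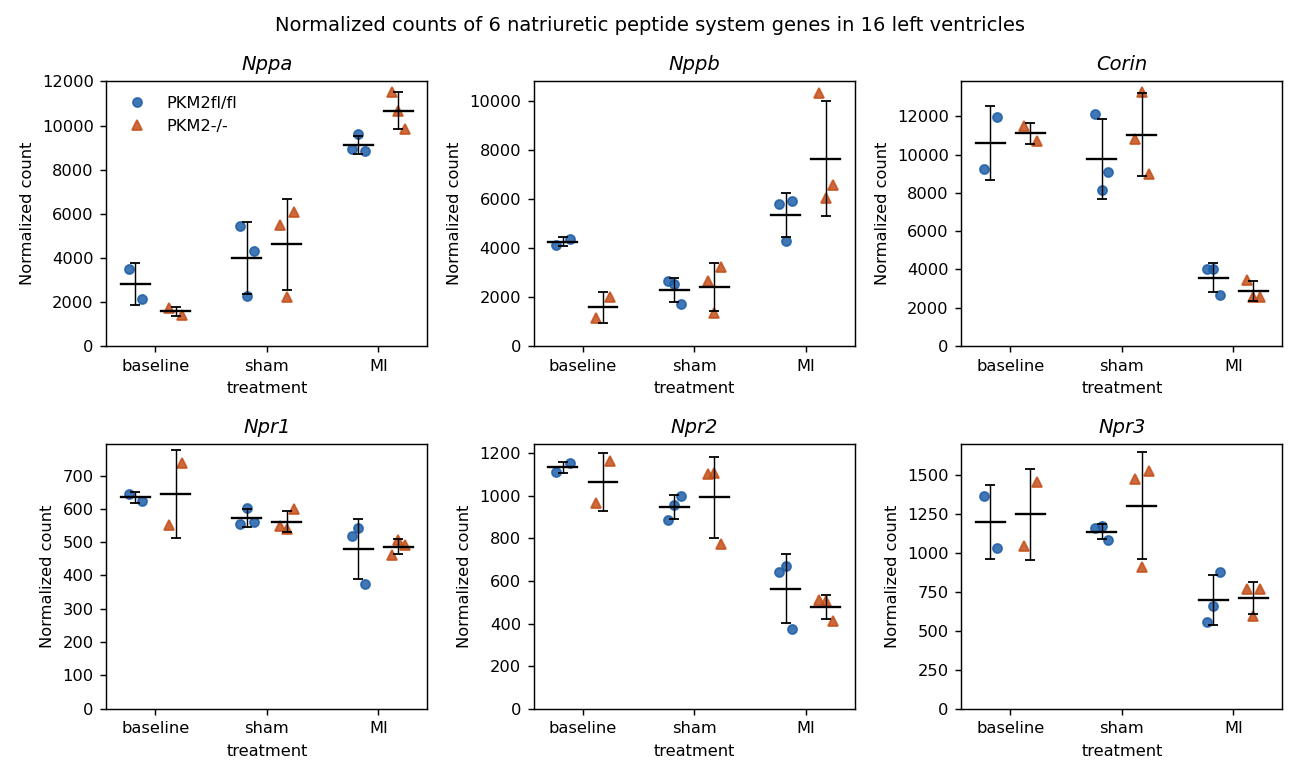
Normalized count (y axis, linear from 0, its own scale in each panel) of Nppa, Nppb, Corin, Npr1, Npr2 and Npr3 in every library, by treatment (x axis) and genotype. Each point is 1 library, and lines and bars are the mean and SD of 2 or 3 libraries. Nppa and Nppb stand higher after MI than after sham in both genotypes, and the other 4 genes stand lower.

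Libraries held 20623769 to 71855101 reads. The labels were checked against 6 genes known to be induced in infarcted ventricle, whose summed level was 80931 to 97904 normalized counts in the 6 MI libraries and at most 12260 elsewhere. The 8 markers of working cardiomyocytes summed to 944428 to 1194888 normalized counts in baseline and sham libraries and to 191611 to 455102 after MI. Library PKM2fl/fl MI 3 stood apart from the others of its group, with the lowest cardiomyocyte sum (191611) and a weight of 0.25 where libraries were weighted by their fit. Reads from rRNA-related loci made up 15.9% to 49.6% of a library, 17.4% and 22.3% in the PKM2fl/fl baseline hearts and 45.3% and 41.3% in the PKM2-/- baseline hearts. These loci were an assumed list of 18 names, of which 12 were in the deposited table. Among them were Lars2, Cd44, Gphn and CT010467.1, which the study reported as higher in PKM2-/- hearts at baseline.

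The first comparison asked how MI altered the system against sham surgery. Nppa and Nppb rose in both genotypes, Corin, Npr2 and Npr3 fell in both genotypes, and Npr1 did not pass in either genotype alone. A gene passed when its adjusted p, from limma over all genes tested, was under 0.05. In PKM2fl/fl hearts 2 of the 6 tested members passed as higher and 3 as lower, where 24.8% of all genes tested passed as higher and 25.3% as lower. In PKM2-/- hearts the counts were again 2 and 3, where 28.7% of all genes passed as higher and 28.1% as lower. MI thus altered a large part of the transcriptome, and a passing member was not unusual among genes.

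Nppa, the gene for atrial natriuretic peptide, measured 5461, 2250 and 4291 normalized counts in the PKM2fl/fl sham hearts and 8935, 9596 and 8868 in the PKM2fl/fl MI hearts. The PKM2-/- hearts had 5500, 2246 and 6098 after sham and 11510, 10670 and 9822 after MI. Every MI library lay above every sham library, and the sham libraries were far more spread than the MI libraries. The rise was 1.28 ± 0.34 (SE) on the log2 scale in PKM2fl/fl hearts (adjusted p = 0.00501, limma) and 1.33 ± 0.34 in PKM2-/- hearts (adjusted p = 0.00328). Taking both genotypes together it was 2.48-fold (adjusted p = 0.000172). The PKM2-/- estimate leaned on the library PKM2-/- sham 2, without which it was 0.88 (adjusted p = 0.0166).

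Nppb, the gene for B-type natriuretic peptide, measured 2645, 2520 and 1709 normalized counts in PKM2fl/fl sham hearts and 5794, 4309 and 5940 in PKM2fl/fl MI hearts. Without PKM2 it was at 2657, 1336 and 3241 after sham and at 10354, 6066 and 6561 after MI. Sham and MI libraries did not overlap in either genotype, and PKM2-/- MI 1 was the highest of the 16. The rise was 1.23 ± 0.30 (SE) on the log2 scale in PKM2fl/fl hearts (adjusted p = 0.00321, limma) and 1.72 in PKM2-/- hearts (adjusted p = 0.000182), or 2.78-fold over both genotypes (adjusted p = 1.91e-05).

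Nppc, the gene for C-type natriuretic peptide, which is made mainly by endothelium and other tissues than heart muscle, had 46 reads in all 16 libraries together. Its reads were 0 in 6 libraries and at most 10 in any other, or 0 to 6.47 normalized counts. The 6 libraries without a read were PKM2fl/fl baseline 1 and sham 1, and PKM2-/- baseline 1, baseline 2, sham 1 and MI 3. If each read is a separate event, a count of 0 allows up to 3 reads, as far as counting error goes. That is 1.76 to 5.50 normalized counts in those libraries. All Nppc counts above 0 were even (2, 4, 6 or 10 reads), so the mates of a pair may have been counted singly. The floor would then be higher. A difference between groups was therefore not detectable for Nppc at this depth.

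Corin, the gene for the protease that cleaves the atrial natriuretic peptide precursor, fell the most of the 6 members. It measured 12138, 8134 and 9067 normalized counts after sham and 4010, 4040 and 2681 after MI in PKM2fl/fl hearts. The PKM2-/- values were 10839, 13295 and 9001 after sham and 3474, 2579 and 2574 after MI. The groups were widely separated in both genotypes. Corin fell by 1.45 on the log2 scale in PKM2fl/fl hearts (adjusted p = 2.8e-05, limma) and by 1.94 in PKM2-/- hearts (adjusted p = 1.51e-06), to 0.309 of the sham level over both genotypes (adjusted p = 6.53e-08).

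Npr1, the cyclase receptor for atrial and B-type peptide, was at 555, 603 and 561 normalized counts after sham and 519, 543 and 375 after MI in PKM2fl/fl hearts. The PKM2-/- hearts had 548, 538 and 599 after sham and 462, 506 and 490 after MI. All MI libraries lay below all sham libraries of their genotype, but by small margins. The log2 difference was -0.27 (adjusted p = 0.106, limma) in PKM2fl/fl and -0.21 (adjusted p = 0.209) in PKM2-/- hearts. Over both genotypes Npr1 passed at 0.846 of the sham level (adjusted p = 0.0380). That call was lost in DESeq2 (adjusted p = 0.0513), and scaling to reads outside rRNA-related loci turned the difference to 0.046 (adjusted p = 0.719). It was also lost on leaving out any of PKM2fl/fl sham 1, 2 or 3, PKM2fl/fl MI 3, PKM2-/- sham 1 or 3, or PKM2-/- MI 1 or 3, with adjusted p of 0.0507 to 0.0916 and a difference of -0.16 without PKM2fl/fl MI 3.

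Npr2, the cyclase receptor for C-type peptide, was at 885, 957 and 997 normalized counts after sham and 643, 669 and 376 after MI in PKM2fl/fl hearts. Its PKM2-/- values were 1100, 1106 and 773 after sham and 512, 505 and 413 after MI. Sham and MI libraries were separate in both genotypes. Npr2 fell by 0.79 on the log2 scale in PKM2fl/fl (adjusted p = 0.00286, limma; 0.53 without PKM2fl/fl MI 3) and by 1.05 in PKM2-/- hearts (adjusted p = 0.000258). Over both genotypes the MI level was 0.529 of the sham level (adjusted p = 2.24e-05).

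Npr3, the clearance receptor, was at 1156, 1170 and 1079 normalized counts after sham and 556, 658 and 876 after MI in PKM2fl/fl hearts. Hearts without PKM2 had 1474, 908 and 1521 after sham and 766, 591 and 767 after MI. Here too the groups were separate. Npr3 fell by 0.73 on the log2 scale in PKM2fl/fl (adjusted p = 0.00858, limma) and by 0.85 in PKM2-/- hearts (adjusted p = 0.00262), to 0.579 of the sham level over both genotypes (adjusted p = 0.000213). The call for Npr3 did not hold in PKM2fl/fl when libraries were scaled to reads outside rRNA-related loci (adjusted p = 0.063), nor did it in PKM2-/- hearts (adjusted p = 0.0665). In the latter those of Npr2 and Npr3 were lost when libraries were scaled to total reads (adjusted p = 0.174 and 0.379).

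All 6 members thus had MI and sham libraries that did not overlap, in each genotype. Over all genes tested, the MI libraries lay wholly above the sham libraries for 30.0% and wholly below for 29.0% in PKM2fl/fl hearts, and for 31.7% and 30.6% in PKM2-/- hearts. Over both genotypes together 2 members passed as higher and 4 as lower, where 32.9% of all genes passed as higher and 32.7% as lower.

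**Figure D2:**
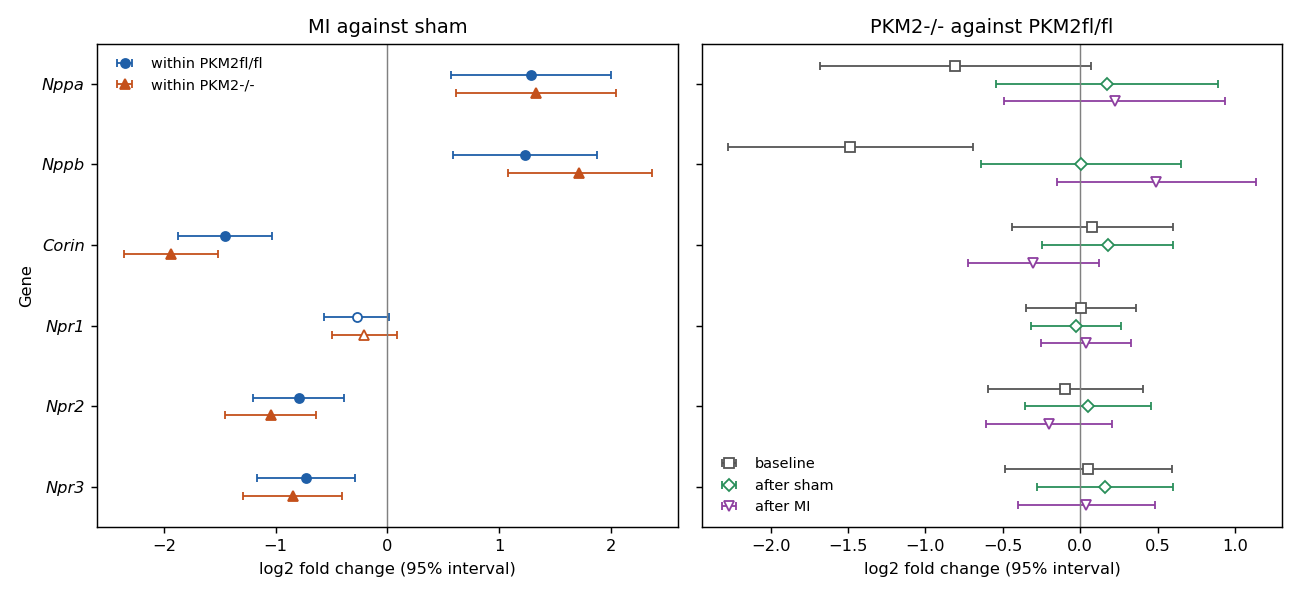
Log2 fold change (x axis, with 95% intervals) of the 6 tested genes between MI and sham within each genotype (left) and between PKM2-/- and PKM2fl/fl hearts at baseline, after sham and after MI (right). Filled points had an adjusted p under 0.05 and open points did not. On the left Nppa and Nppb lie right of 0 and Corin, Npr2 and Npr3 left of 0 in both genotypes, while all points on the right are open.

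Scaling affected how the whole table split. Scaled to reads outside rRNA-related loci, the median gene rose by 0.29 on the log2 scale between sham and MI over both genotypes, and 9570 genes passed as higher and 4308 as lower, in place of 6779 and 6738. Scaled to total reads the median gene moved by 0.17, with 5955 higher and 3767 lower. The direction of Nppa, Nppb, Corin, Npr2 and Npr3 was the same under these scalings, in each genotype and over both.

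These were bulk tissue libraries, so fewer cells of a type and less RNA per cell cannot be told apart. Markers of other cell types moved along with the members between sham and MI. Over both genotypes all 8 cardiomyocyte markers fell, with a median log2 difference of -2.04. Of the leukocyte markers 4 of 5 rose, and their sum was 2605 to 4888 normalized counts in the sham and 9484 to 17367 in the MI libraries. Endothelial markers went 2 up and 1 down of 5, endocardial markers 3 up and 1 down of 5, fibroblast markers 3 up and 1 down of 5, and mural cell markers 3 up and 2 down of 5. Over all genes 32.9% passed as higher and 32.7% as lower, so the endothelial counts were close to those shares. Of the 3 erythroid markers none passed, and the 3 adipocyte markers were too low to be tested. The part that these shifts in cell content had in the members' levels was not tested.

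Set against the cardiomyocyte markers of the same library, the members ranked differently. The log2 ratio of Corin to the mean of the 8 markers lay between -3.75 and -2.86 in all 16 libraries, and its mean moved by 0.25 (PKM2fl/fl) and 0.13 (PKM2-/-) from sham to MI. Corin and the cardiomyocyte markers therefore fell by a like amount. The same ratio for Nppa rose by 2.98 in PKM2fl/fl and 3.40 in PKM2-/- hearts, and for Nppb by 2.93 and 3.79. Those of the receptors rose less, by 1.43 and 1.86 for Npr1, 0.91 and 1.02 for Npr2, and 0.97 and 1.22 for Npr3. A ratio within a library shows unequal change of its numerator and denominator, and each of these was given without a test.

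**Figure D3:**
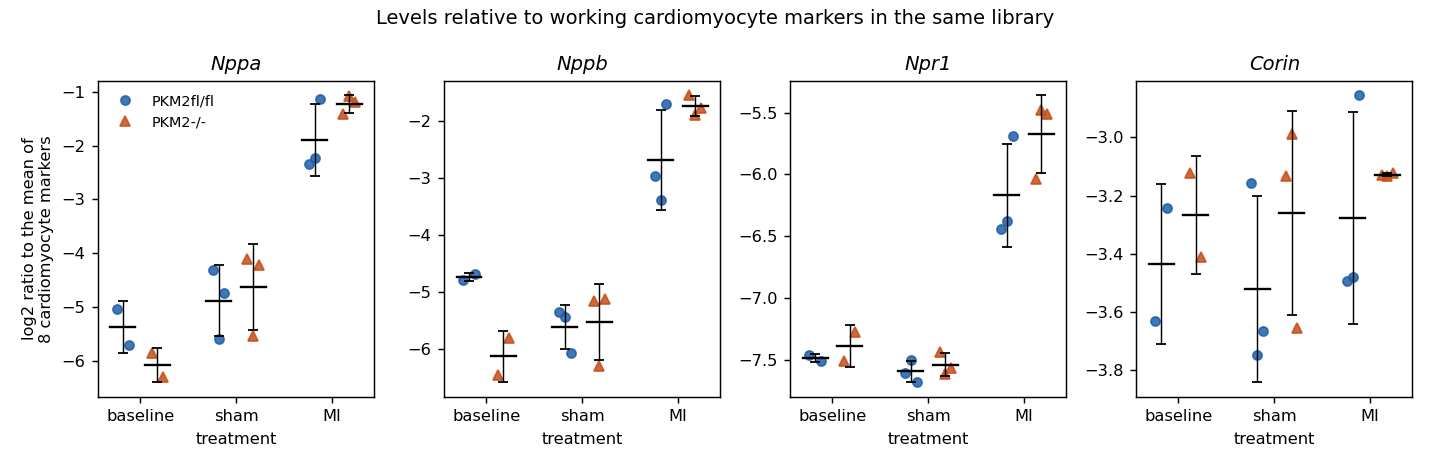
Log2 ratio of Nppa, Nppb, Npr1 and Corin to the mean of 8 cardiomyocyte markers in the same library (y axis, its own scale in each panel), by treatment (x axis) and genotype. Each point is 1 library, and lines and bars are the mean and SD of 2 or 3 libraries. The Corin points stay between -3.75 and -2.86 throughout, while the Nppa, Nppb and Npr1 points lie higher in the MI libraries than in all others.

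The balance between members was also compared within libraries. The log2 ratio of Nppb to Nppa was 0.63 ± 0.56 (SD, n = 2) in PKM2fl/fl hearts at baseline, -0.74 ± 0.79 (n = 3) after sham and -0.79 ± 0.32 (n = 3) after MI. In PKM2-/- hearts it was -0.05 ± 0.77 (n = 2), -0.90 ± 0.15 (n = 3) and -0.52 ± 0.34 (n = 3). These are ratios of normalized counts and not of levels per kilobase, and PKM2fl/fl baseline was the only group with every ratio above 0. For the clearance receptor against Npr1 the mean log2 ratio was 0.90, 0.99 and 0.53 at baseline, after sham and after MI in PKM2fl/fl, and 0.95, 1.17 and 0.53 in PKM2-/- hearts, with ranges that overlapped between sham and MI in PKM2fl/fl and did not in PKM2-/- hearts. The overlap came from PKM2fl/fl MI 3 alone (1.22), with MI 1 and 2 at 0.10 and 0.28 and the sham hearts at 0.94 to 1.06. In PKM2-/- hearts the nearest libraries were close, at 0.73 (MI 1) and 0.75 (sham 2).

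The second comparison asked whether loss of PKM2 altered the response to MI. For the interaction of genotype and infarct 0 of the 6 members passed, where 0% of all genes tested passed. The difference between the genotypes' MI effects was 0.05 on the log2 scale for Nppa (95% interval -0.96 to 1.06), 0.49 for Nppb (-0.42 to 1.40; adjusted p = 0.786, limma) and -0.48 for Corin (-1.08 to 0.12; adjusted p = 0.683). For the receptors it was 0.07 (Npr1), -0.25 (Npr2) and -0.12 (Npr3). All 6 intervals held 0, so 0 members reached an unadjusted p of 0.05, and edgeR and DESeq2 also passed 0 members. The interval for Nppb reached past the size of its rise in PKM2fl/fl hearts, so a difference of that size was not excluded with 3 mice a group.

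The third set of comparisons was between the genotypes at each state. At baseline Nppb measured 4123 and 4381 normalized counts in the PKM2fl/fl and 1139 and 2023 in the PKM2-/- hearts, and Nppa measured 3491 and 2150 against 1717 and 1429. Both peptide genes were lower in each PKM2-/- heart than in each PKM2fl/fl heart, which held for 17.2% of all genes tested, with as many as 17.7% wholly higher. The PKM2-/- level of Nppb was 0.357 of that in PKM2fl/fl hearts, a log2 difference of -1.48 (95% interval -2.27 to -0.70; unadjusted p = 0.00113, limma). This did not pass over all genes (adjusted p = 0.684). Nppa differed by -0.81 (-1.68 to 0.07; adjusted p = 1), and the other 4 tested members by -0.10 to 0.08.

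At baseline 0 of the 6 members passed in limma, edgeR or DESeq2, and 1, Nppb, had an unadjusted limma p under 0.05, where 0.00972% of all genes passed after adjustment. The rRNA-related share of reads moved with the genotype in these 4 libraries, as given above, and its part in the Nppb difference was not tested. When libraries were scaled to total reads the median gene shifted by -0.59, and Nppb stood at -2.07 (adjusted p = 0.00299). Relative to the cardiomyocyte markers the PKM2-/- hearts were lower by 1.39 on the log2 scale for Nppb and by 0.71 for Nppa.

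After sham surgery the genotypes were alike in range. Nppb differed by 0.00473 on the log2 scale (95% interval -0.64 to 0.65) and Nppa by 0.17 (-0.54 to 0.89), and the libraries of the genotypes overlapped for all 6 members, where 8.27% of all genes were wholly higher and 8.28% wholly lower in PKM2-/- hearts. The receptors and Corin differed by -0.03 to 0.18. None of the 6 passed in limma, edgeR or DESeq2, 0 had an unadjusted p under 0.05, and 0.00972% of all genes passed.

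After MI the order at baseline was turned round for both peptide genes. Nppb was at 5794, 4309 and 5940 normalized counts in PKM2fl/fl and at 10354, 6066 and 6561 in PKM2-/- hearts, and Nppa at 8935, 9596 and 8868 against 11510, 10670 and 9822. Each PKM2-/- library lay above each PKM2fl/fl library, as it did for 10.7% of all genes, and the gap between the nearest libraries of the genotypes was small for both genes. The log2 difference was 0.49 for Nppb (95% interval -0.15 to 1.14; adjusted p = 0.431, limma) and 0.22 for Nppa (-0.49 to 0.94). Corin differed by -0.30 (-0.73 to 0.12), Npr2 by -0.20, and Npr1 and Npr3 by 0.04. After MI 0 of 6 members passed in limma, edgeR or DESeq2, 0 had an unadjusted p under 0.05, and 0.967% of all genes passed. The 8 cardiomyocyte markers summed to 191611 to 455102 normalized counts in the PKM2fl/fl and 206443 to 281247 in the PKM2-/- MI hearts. Their median log2 difference between the genotypes was -0.44, and 0 of the 8 passed. The part of muscle content in the order of Nppa and Nppb after MI was not tested.

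The last comparison set the sham hearts against the hearts without surgery, and Nppa alone of the 6 members passed. Over both genotypes Nppa was 1.92-fold higher 3 days after sham surgery than at baseline (0.94 ± 0.27 SE on the log2 scale; adjusted p = 0.0463, limma), where 4.52% of all genes passed as higher and 2.02% as lower. Nppb differed by -0.17 (adjusted p = 0.779) and the other 4 tested members by -0.19 to -0.01. The Nppa call was close to the threshold, and leaving out any library other than PKM2fl/fl sham 2, PKM2fl/fl MI 3 or PKM2-/- sham 2 ended it, with adjusted p of 0.0533 to 0.208 and differences of 0.77 to 1.12. It was also lost when only the groups compared were fitted (adjusted p = 0.0868).

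Contrasts within each genotype, and their differences, were added after the values of Nppa and Nppb by library had been seen. In PKM2-/- hearts Nppa rose from 1717 and 1429 normalized counts at baseline to 5500, 2246 and 6098 after sham, which was 2.70-fold (1.43 on the log2 scale; adjusted p = 0.0395, limma), where 3.48% of all genes passed as higher. The sham libraries all lay above the baseline libraries, as they did for 18.4% of all genes. In PKM2fl/fl hearts the values at baseline were 3491 and 2150, the sham values were 5461, 2250 and 4291, and the difference was 0.45 (adjusted p = 0.859), where 0.190% of all genes passed. The PKM2-/- call was lost without PKM2fl/fl MI 1, PKM2-/- baseline 1 or 2, PKM2-/- sham 1 or 3, or any PKM2-/- MI library (adjusted p of 0.0502 to 0.223). It was also lost with only the groups compared (adjusted p = 0.0764) and with no filter on low values (adjusted p = 0.0612).

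Nppb went a different way in the 2 genotypes, though the difference did not pass. In PKM2fl/fl hearts all 3 sham values (2645, 2520 and 1709) lay below both baseline values (4123 and 4381), a log2 difference of -0.92 (unadjusted p = 0.0160, adjusted p = 0.376, limma). Npr1 and Npr2 also lay wholly below baseline after sham in this genotype, as did 15.2% of all genes. In PKM2-/- hearts Nppb was at 1139 and 2023 at baseline and at 2657, 1336 and 3241 after sham, and differed by 0.57 (adjusted p = 0.408) with overlapping libraries. The difference between the genotypes in the sham effect was 1.49 for Nppb (unadjusted p = 0.00707, adjusted p = 0.583) and 0.98 for Nppa (adjusted p = 0.855), where 0% of all genes passed.

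Nppa is far higher in atrium than in ventricle, and some markers of atrial cardiomyocytes moved with it between baseline and sham. Of 6 atrial markers tested, 3 passed as higher after sham (Myl4 at 1.75, Sln at 3.27 and Dkk3 at 1.23 on the log2 scale) and 0 as lower. Over all genes 4.52% passed as higher and 2.02% as lower. The median difference was 1.49 for the atrial markers against 0.02 over all genes. Myl7, the light chain of atrial muscle, was at 401, 90.3 and 405 normalized counts in the PKM2fl/fl sham hearts and at 378, 226 and 69.0 in the PKM2-/- sham hearts, against 11 and 19.9 (PKM2fl/fl) and 139 and 51.3 (PKM2-/-) at baseline. In PKM2fl/fl the sham libraries with the most Myl7 (1 and 3) were those with the most Nppa, and the lowest in Myl7 (2) was the lowest in Nppa. In PKM2-/- hearts sham 1 and 3 were the highest in Nppa while Myl7 was the highest in sham 1 and the lowest in sham 3. Bmp10, which is also in the atrial list, was too low to be tested, at 0 in 13 of the 16 libraries and at most at 4.11 normalized counts. Other lists moved between baseline and sham too, over both genotypes. Of the leukocyte markers 5 of 5 passed as higher, as did 4 of the 6 infarct-induced genes, 2 of 5 fibroblast and 2 of 5 endocardial markers. Endothelial and mural markers each had 1 of 5 lower, and 0 of 8 cardiomyocyte markers passed.

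After MI the atrial markers did not rise with Nppa. Against sham over both genotypes 0 of 6 were higher and 3 (Myl7, Kcnj3 and Stard10) lower, where 32.9% of all genes passed as higher and 32.7% as lower. The median of the 6 was -1.26, and Myl7 was at 24.7, 140 and 113 normalized counts in PKM2fl/fl and at 9.73, 246 and 77.9 in PKM2-/- MI hearts. The summed level of the 7 atrial genes, of which ventricle also expresses several, was 3934 to 4225 at baseline and 3951 to 5383 after sham in PKM2fl/fl, 5368 to 6534 at baseline and 3405 to 4434 after sham in PKM2-/-, and 926 to 2505 in the MI libraries. Kcnj3 made up most of the sum before MI, and its mean was 5160 normalized counts in PKM2-/- hearts at baseline and 2445 after sham, so the sum did not follow Nppa in that genotype. The part of atrial tissue, or of other cell types, in the sham level of Nppa was not tested.

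Against baseline, the added contrasts gave a larger MI response of the peptide genes in PKM2-/- hearts in size, with overlapping intervals for Nppa. Nppa rose 3.33-fold in PKM2fl/fl (1.74 on the log2 scale; adjusted p = 0.00138, limma) and 6.79-fold in PKM2-/- hearts (2.76; adjusted p = 1.71e-05). Nppb was 0.32 higher on the log2 scale in PKM2fl/fl, with overlapping libraries and an interval of -0.40 to 1.04 (adjusted p = 0.463), and rose 4.90-fold in PKM2-/- hearts (2.29; adjusted p = 3.63e-05). In PKM2fl/fl hearts 25.0% of all genes passed as higher, and in PKM2-/- hearts 29.0%. Corin, Npr1, Npr2 and Npr3 were lower after MI than at baseline and passed in both genotypes, where 24.2% (PKM2fl/fl) and 28.0% (PKM2-/-) of all genes passed as lower. The Npr1 calls were close to the threshold (adjusted p = 0.0312 in PKM2fl/fl and 0.0394 in PKM2-/- hearts, limma). Both were lost with no filter on low values (adjusted p = 0.0530 and 0.0639, limma).

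The genotypes' MI responses measured from baseline differed by 1.98 on the log2 scale for Nppb (95% interval 0.96 to 3.00; unadjusted p = 0.000879, adjusted p = 0.285, limma) and by 1.03 for Nppa (-0.10 to 2.16; adjusted p = 0.581). Neither passed, where 0.0243% of all genes did. For Nppb the call depended on the setting. It passed in DESeq2 (adjusted p = 0.0149), with library weights (adjusted p = 0.0476), without PKM2fl/fl MI 3 (adjusted p = 0.0489), and when scaled to total reads (adjusted p = 0.00101), a scaling that moved the median gene by 0.94 in this contrast. In edgeR it did not pass (adjusted p = 0.281). A pattern with the PKM2-/- libraries wholly below PKM2fl/fl at baseline and wholly above after MI was seen in 403 genes, or 1.96% of those tested, and Nppa and Nppb were both among them.

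Ordered by mean level, Nppa went from PKM2-/- baseline (1573 ± 203 normalized counts, SD, n = 2) through PKM2fl/fl baseline (2821 ± 948, n = 2), PKM2fl/fl sham (4001 ± 1625, n = 3), PKM2-/- sham (4615 ± 2073, n = 3) and PKM2fl/fl MI (9133 ± 402, n = 3) to PKM2-/- MI (10667 ± 844, n = 3). Neighbours in the middle of this order, from PKM2fl/fl baseline to PKM2-/- sham, overlapped in their libraries. Nppb had another order, from PKM2-/- baseline (1581 ± 625, n = 2) through PKM2fl/fl sham (2292 ± 508, n = 3), PKM2-/- sham (2411 ± 976, n = 3), PKM2fl/fl baseline (4252 ± 183, n = 2) and PKM2fl/fl MI (5348 ± 902, n = 3) to PKM2-/- MI (7660 ± 2346, n = 3). Its lowest 3 groups overlapped, as did PKM2fl/fl baseline and PKM2fl/fl MI. Corin was at 10605 ± 1949 and 11110 ± 564 at baseline and at 9779 ± 2095 and 11045 ± 2154 after sham in PKM2fl/fl and PKM2-/- hearts, overlapping throughout, and at 3577 ± 776 and 2875 ± 518 after MI. For the receptors the 2 MI groups were the lowest 2 in mean level of all 6 groups.

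The enzymes and regulators around the peptides were then read from lists of named genes, over both genotypes, MI against sham. Of the 5 tested genes for processing and breakdown 1 passed as higher and 2 as lower, close to the shares over all genes (32.9% and 32.7%). Furin, the convertase that cleaves the precursor of B-type peptide, was 0.26 higher on the log2 scale (adjusted p = 0.0429, limma), Pcsk6, which activates corin, was lower by 1.07, and Mme (neprilysin), which degrades the peptides, was lower by 1.47. Ide (-0.08) and Dpp4 (0.42) did not pass, and Ostn, a peptide bound by the clearance receptor, was too low to be tested.

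The cyclic GMP steps downstream went both ways, as did the whole table, where 32.9% of all genes passed as higher and 32.7% as lower. Of the soluble guanylyl cyclase and nitric oxide genes 1 of 5 passed as higher (Nos2, the inducible nitric oxide synthase, 1.11) and 1 as lower (Gucy1a1, -0.32). Of the 6 genes for cyclic GMP-dependent kinases and their substrates, Vasp rose (1.18), and Pln, the inhibitor of the calcium pump (-1.94), Mrvi1 (-0.78), Rgs2 (-0.70) and Prkg1, the type I kinase (-0.50), fell. Among 9 phosphodiesterases that split cyclic GMP, 4 rose (Pde1b at 1.97, Pde1a at 1.38, Pde3b at 0.85 and Pde5a at 0.28) and 4 fell (Pde1c at -1.43, Pde3a at -0.82, Pde10a at -0.40 and Pde2a at -0.32). Pde5a and Pde9a are those known for the nitric oxide and the natriuretic peptide pool of cyclic GMP, and Pde9a did not pass.

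The smaller of these changes turned on the scaling. With reads outside rRNA-related loci as the scale, 3 soluble cyclase and nitric oxide genes passed as higher and 0 as lower, 2 kinase-list genes as higher and 3 as lower, and 4 phosphodiesterases as higher and 2 as lower. For processing and breakdown 2 then passed as higher and 2 as lower. At that scale more of all genes also passed as higher than as lower, as given above.

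**Figure D4:**
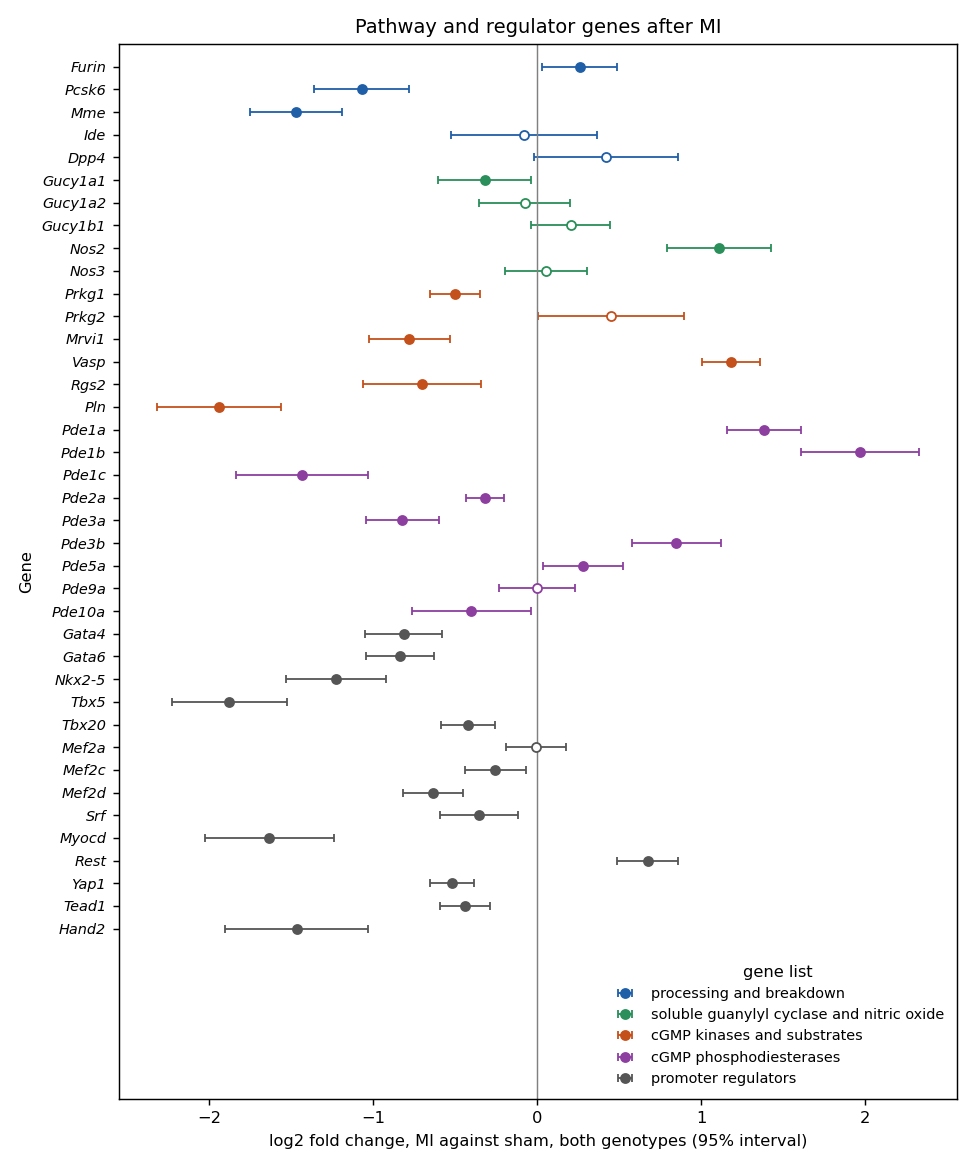
Log2 fold change between MI and sham over both genotypes (x axis, with 95% intervals) of the 39 tested genes in the lists for peptide processing, cyclic GMP signalling and promoter regulation. Filled points had an adjusted p under 0.05. Most promoter regulators lie left of 0, and the phosphodiesterases spread from -1.43 to 1.97.

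The transcription factors known to act on the Nppa and Nppb promoters mostly fell while both genes rose. Of 14 regulators 12 passed as lower and 1 as higher, where 32.7% of all genes passed as lower and 32.9% as higher. The median regulator was at -0.57 against 0.01 over all genes. Those whose motifs are marked in the promoter sequences above fell, with Nkx2-5 at -1.23, Gata4 at -0.81, Gata6 at -0.83 and Tead1 at -0.44. Tbx5 (-1.88), Myocd (-1.63) and Hand2 (-1.47) fell the most, and Mef2d (-0.63), Yap1 (-0.52), Tbx20 (-0.42), Srf (-0.35) and Mef2c (-0.25) less. Rest, known as a repressor of both peptide genes, rose by 0.67, and Mef2a did not pass. The counts were 8 lower and 2 higher when scaled to reads outside rRNA-related loci, and 6 lower and 1 higher when scaled to total reads. At both of these scalings more of all genes passed as higher than as lower. The cardiomyocyte markers fell with the regulators, as given above, and the part of these markers was not tested.

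Other genes used as signs of cardiomyocyte stress went both ways, with 2 of 6 higher and 2 lower, again close to the shares over all genes (32.9% and 32.7%). Of these Ccn2 (2.29) and Xirp2 (0.48) rose, Myh7, the fetal myosin heavy chain (-1.37), and Csrp3 (-0.83) fell, and Ankrd1 (0.34) and Acta1, skeletal alpha-actin (-0.04), did not pass. In the interaction of genotype and infarct 0 of the genes named from these lists passed in limma.

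Several members overlap an annotated gene on the opposite strand, and the library kit did not mark strand. Gm13054, a long noncoding RNA gene, shares 615 bases with the exons of Nppa, or 60.4% of them, and was credited with 71.2% to 80.4% as many reads as Nppa in every library. The correlation of their levels was 0.999 over the 16 libraries. Reads of Nppa and of Gm13054 cannot be told apart on the shared bases, so the level of Nppa carries that uncertainty.

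Other members overlap such genes on a far smaller part of their exon bases. Gm12473 shares 5.48% of the exon bases of Npr2 and had 47.9% to 66.3% as many reads, with a correlation of 0.981. Gm20647 shares 3.71% of those of Corin and had 25.6% to 40.9% as many reads, and Gm16048 shares 7.99% of those of Npr1 and had 17.7% to 28.5%. For Npr2, Corin and Npr1 these read percentages were above the percentage of exon bases shared. How many of those reads lay on the shared bases was not tested. For Npr3 the overlapping Gm5144 had 0.175% to 1.5% as many reads. Nppb and Nppc had no overlapping gene.

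**Figure D5:**
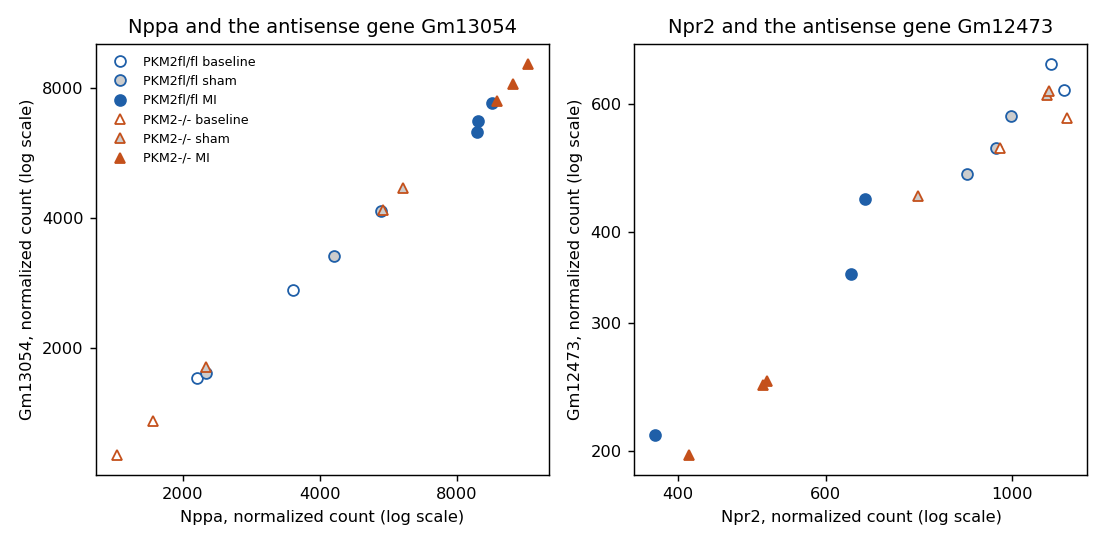
Normalized count of the opposite-strand gene (y axis, log scale) against that of the member it overlaps (x axis, log scale), 1 point per library, for Nppa and Gm13054 (left) and Npr2 and Gm12473 (right). The points of Gm13054 follow those of Nppa closely (r = 0.999), as do those of Gm12473 and Npr2 (r = 0.981).

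Among all tested genes, those whose levels went most closely with each member over the 16 libraries were found by Pearson's r of log2(normalized count + 1), given as a description of points that share the MI and sham groups. For Nppa they were its overlapping gene Gm13054 (0.999), Slfn9 (0.948) and Gm42820 (0.938), and for Nppb they were Prmt1 (0.929), Tnfrsf12a (0.905) and Trmt61a (0.902). Corin went with Gm29237 (0.992), 9430091E24Rik (0.991) and Hipk3 (0.990). The receptor Npr1 went with Ocel1 (0.950), Uaca (0.936) and Nr2f6 (0.934), Npr2 with Obsl1 (0.984), Keap1 (0.982) and its overlapping gene Gm12473 (0.981), and Npr3 with Wdr24 (0.926), Lrrc57 (0.914) and Armc1 (0.911).

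Between members r was highest for Npr2 and Corin (0.942) and was 0.775 for Nppa and Nppb. Within groups, with each group's mean taken off, it was 0.616 for Npr2 and Corin and 0.404 for Nppa and Nppb. For Nppb and Npr3 r was -0.527 over all libraries and 0.708 within groups. For Nppa and Npr2 it was -0.817 over all libraries and -0.232 within groups, and for Nppb and Npr2 -0.737 and -0.246.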

How the data were processed

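RNA from left ventricle of 16 mice was depleted of rRNA, and paired-end libraries were made with a kit that does not mark strand. Trimming by the authors used PRINSEQ, alignment HISAT2 with mm10, gene counting featureCounts and normalization DESeq2, in versions not given in the sources used here. Strand and overlap settings of the counting are likewise not given in those sources. The deposited signal of each library is its read count divided by a DESeq2 size factor. The same deposited table holds the authors' mean signal, log2 fold change and its standard error, test score and p-value for the baseline groups, and these were not used. Whole reads were recovered by division: 100% of values came out whole within 0.01 of a read. No column was left without a sample.

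Group labels came from the sample titles. For the tests limma 3.58.1 in R 4.3.3 (limma-trend) was fitted to log2(normalized count + 1) of all 16 libraries, with 1 mean for each of 6 groups and 10 residual degrees of freedom. A gene was kept if its mean reached 10 normalized counts, p-values were adjusted by Benjamini-Hochberg over all 20576 genes, and 0.05 was the threshold. Fold changes on this scale understate the change of low genes. Alternatives were edgeR 4.0.16 and DESeq2 1.42.0 on recovered reads, other scalings, another pseudocount, no filter, a replicate block, library weights and leaving out each library in turn. The code was tested on simulated data.

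The 7 members and all gene lists, which are also the genes named in the text, were chosen with earlier results of these data known, and the 3 genes nearest to each member by correlation were added by rank. Exon lengths came from GENCODE M39, promoters and gene positions from RefSeq on GRCm38.p6. With 780 to 16801 reads of Nppa and 977 to 12772 of Nppb per library, counting error was small beside the spread between mice. That did not hold in every group for the receptor genes, at 336 to 1145 reads of Npr1 and 286 to 2033 of Npr2. The SD of PKM2fl/fl baseline hearts was only 2.57% of the mean for Npr1 and 2.42% for Npr2. Nor did it hold for Nppc. Floors for a count of 0 cover counting error only. Some items are not reported here.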

Additional observations from a re-analysis of the deposited data

Results flagged for a closer look

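The 2 peptide genes of the cardiomyocyte were set apart because their genotype difference pointed one way at baseline and the other way after MI, in every library. Nppb was lower in both PKM2-/- hearts than in both PKM2fl/fl hearts at baseline, and higher in all 3 PKM2-/- hearts than in all 3 PKM2fl/fl hearts after MI. The genotype difference moved by 1.98 on the log2 scale between the 2 states (adjusted p = 0.285, limma). Nppa showed the same order, with a shift of 1.03 (adjusted p = 0.581, limma). Neither shift passed after adjustment, and 1.96% of all genes tested showed this order in their libraries. The contrast was added after the values had been seen. Baseline groups had 2 mice each, and the rRNA-related share of reads was 17.4% and 22.3% in PKM2fl/fl and 45.3% and 41.3% in PKM2-/- baseline hearts. Its part in the difference was not tested.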

How the results depend on the processing

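Of 576 recomputations that left out 1 library, 545 kept direction and side of the threshold, 29 lost a call, 2 gained one and 0 changed direction, and of 432 under other settings 401, 14, 13 and 4 did so. Leaving out 1 library gave 5 to 6 passing members for MI against sham in PKM2fl/fl, 5 in PKM2-/- and 5 to 6 over both genotypes, 0 for each genotype contrast and the interaction, and 0 to 1 for sham against baseline. Members that passed fell from 5 to 3 for MI against sham in PKM2-/- hearts when scaled to total reads. Sham against baseline went from 1 to 0 with only the groups compared, with TMM scaling and with no filter on low values. The genotype contrast at baseline went from 0 to 1 when scaled to total reads and to 2 in edgeR with no filter, and after MI from 0 to 1 in edgeR with no filter. That last setting gave an infinite median prior degrees of freedom, against 5.60 with a filter, so it held no spread of single genes. Npr1 changed sign for MI against sham, in PKM2-/- hearts with total reads (0.30) and reads outside rRNA-related loci (0.15), and over both genotypes with the latter (0.046). The Corin interaction changed sign with total reads (0.21). Those scalings also shifted the median gene, by 0.52 and 0.37 in PKM2-/- hearts and by 0.68 and 0.14 in the interaction, and the cause of the changes was not tested further.

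A replicate block changed no call of a member, with 5, 5 and 6 passing for MI against sham in PKM2fl/fl, PKM2-/- and both genotypes, and 0, 0, 0, 0 and 1 in the others. The numbers come from separate mice, and libraries with the same number did not deviate together (median correlation -0.03 over 36 pairs, 1 of them over 0.1). Over all genes the genotype calls after MI went from 199 to 75 with the block and to 6 with only the groups compared, while DESeq2 gave 1033. Without PKM2-/- MI 3 there were 11 and without PKM2fl/fl MI 3 there were 2279. With 2 or 3 mice a group, differences of 2-fold could be missed, and p-values cover the spread between these mice.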
